A study of Mus musculus with 4 samples.

Results

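CpG islands (CGIs) that lie inside gene bodies were described in 4 methylomes of the mouse colon. A CGI was any region covered by 500-bp windows with at least 25 CpGs, and its gene-body part was made of the 200-bp bins with at least 100 bp in the CGI whose centre lay in a protein-coding gene, outside the 5' region (from 1 kb upstream of the start to the end of exon 1) and outside the last exon of every gene. Position and CpG density alone set this choice, and methylation played no part in it. There were 50684 such autosomal bins with at least 10 calls in each library, a call being 1 read of 1 CpG, and 50353 of them also had the 2 CpGs needed for testing, out of 4076373 autosomal bins tested. A further 1684 bins (3.22%) fell below the minimum of calls. The bins lay in 15540 of 29666 autosomal CGIs and in 11055 of 21418 genes, and made up 33.4% of all CGI bins. Whole-genome bisulfite sequencing, which reads unmethylated cytosine as T and methylated cytosine as C, had been applied to intestinal stem cells (ISCs) sorted by EGFP from the Lgr5 locus and to EpCAM-positive, Lgr5-EGFP-negative epithelial cells, here called differentiated cells, at postnatal day 0 (P0) and day 21 (P21). All mice were C57 animals from crosses of Lgr5-EGFP-CreER knock-in with wild-type mice, so the stem cells are those in which the endogenous Lgr5 sequences drive the reporter. Each of the 4 groups (ISC P0, differentiated P0, ISC P21, differentiated P21) had 1 library of pooled animals, from 16 litters at P0 and from 7 reporter-positive offspring at P21, and every test below therefore compares libraries and not animals or conditions.

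CGIs are stretches where CpGs have escaped the loss that methylated CpGs undergo over evolution, and most of those at promoters are unmethylated. Inside genes, where the surrounding DNA is usually methylated, an island can be the promoter of an alternative or antisense transcript, can carry methylation on only 1 parental allele at imprinted genes, or can be methylated like its surroundings and lie in coding exons. Methylation of islands within genes differs between tissues more often than that of islands at gene starts, and gene-body methylation is generally found at transcribed genes.

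To show what such islands look like, 11 bins are printed from the plus strand of the mm9 reference (NCBIM37), with every CpG in capitals. The first 5 are the bins with the largest rise from P0 to P21 in ISCs within islands of Hoxd3, Amn, Baiap2l2, Jakmip1 and Kcnq1, and the next 3 those with the largest fall within islands of Epcam, Sphk2 and Itga2. The last 3 are the bins with the most CpGs in islands of other levels: an island of Igf2r at an intermediate level, an unmethylated island of Cyp26b1 and a methylated island of Gng12.
Hoxd3 chr2:74574601-74574800: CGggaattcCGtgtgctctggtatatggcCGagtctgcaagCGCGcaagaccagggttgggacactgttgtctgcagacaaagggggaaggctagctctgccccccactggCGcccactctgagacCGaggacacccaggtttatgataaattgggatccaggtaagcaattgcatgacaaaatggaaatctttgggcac
Amn chr12:112513001-112513200: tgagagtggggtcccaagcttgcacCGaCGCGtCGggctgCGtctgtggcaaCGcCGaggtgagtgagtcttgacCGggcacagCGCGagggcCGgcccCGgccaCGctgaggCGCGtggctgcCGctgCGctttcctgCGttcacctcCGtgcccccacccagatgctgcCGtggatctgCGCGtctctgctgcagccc
Baiap2l2 chr15:79091601-79091800: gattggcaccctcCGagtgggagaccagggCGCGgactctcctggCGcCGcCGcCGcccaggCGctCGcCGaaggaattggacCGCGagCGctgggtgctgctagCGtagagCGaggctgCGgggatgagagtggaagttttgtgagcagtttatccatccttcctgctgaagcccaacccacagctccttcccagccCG
Jakmip1 chr5:37482601-37482800: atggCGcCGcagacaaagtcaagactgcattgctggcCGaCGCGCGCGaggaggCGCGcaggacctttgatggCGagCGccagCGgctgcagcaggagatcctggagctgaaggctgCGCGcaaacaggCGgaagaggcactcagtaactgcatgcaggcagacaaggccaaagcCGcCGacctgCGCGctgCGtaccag
Kcnq1 chr7:150481001-150481200: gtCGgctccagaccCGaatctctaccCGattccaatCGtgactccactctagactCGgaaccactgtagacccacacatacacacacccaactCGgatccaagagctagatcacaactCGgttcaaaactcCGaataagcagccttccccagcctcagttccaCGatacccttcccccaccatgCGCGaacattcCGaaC
Epcam chr17:88039601-88039800: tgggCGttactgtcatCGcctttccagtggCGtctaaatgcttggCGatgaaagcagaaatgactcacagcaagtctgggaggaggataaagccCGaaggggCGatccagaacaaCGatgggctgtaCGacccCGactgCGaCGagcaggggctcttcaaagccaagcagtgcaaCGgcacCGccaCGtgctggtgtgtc
Sphk2 chr7:52968801-52969000: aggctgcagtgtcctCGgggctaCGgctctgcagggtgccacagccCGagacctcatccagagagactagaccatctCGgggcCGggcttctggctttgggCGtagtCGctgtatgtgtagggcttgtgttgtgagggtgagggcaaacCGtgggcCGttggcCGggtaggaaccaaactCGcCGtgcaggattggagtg
Itga2 chr13:115686601-115686800: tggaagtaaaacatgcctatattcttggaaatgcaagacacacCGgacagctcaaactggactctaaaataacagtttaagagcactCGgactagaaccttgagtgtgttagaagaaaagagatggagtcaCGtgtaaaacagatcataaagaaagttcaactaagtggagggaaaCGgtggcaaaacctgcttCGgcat
Igf2r chr17:12934601-12934800: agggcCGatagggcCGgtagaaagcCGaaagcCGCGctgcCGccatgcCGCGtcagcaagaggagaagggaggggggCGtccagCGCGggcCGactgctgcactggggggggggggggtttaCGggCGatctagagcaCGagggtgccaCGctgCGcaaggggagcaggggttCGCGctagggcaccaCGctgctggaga
Cyp26b1 chr6:84533401-84533600: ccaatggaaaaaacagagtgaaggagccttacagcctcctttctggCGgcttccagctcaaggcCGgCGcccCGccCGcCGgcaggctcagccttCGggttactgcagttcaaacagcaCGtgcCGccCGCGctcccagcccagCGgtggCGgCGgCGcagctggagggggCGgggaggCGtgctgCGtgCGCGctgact
Gng12 chr6:66958601-66958800: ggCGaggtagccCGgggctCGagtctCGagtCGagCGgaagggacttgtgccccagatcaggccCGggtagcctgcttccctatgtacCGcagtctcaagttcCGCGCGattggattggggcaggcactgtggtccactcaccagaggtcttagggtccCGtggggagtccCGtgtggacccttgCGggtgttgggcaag
CpG number did not separate these bins by level. The Jakmip1 bin in coding exon 2, the Igf2r bin in intron 2 and the Cyp26b1 bin in intron 3 each held 20 CpGs, and their ISC P0 levels were 20.4%, 50.7% and 0.949%. The bin with the largest rise was in coding exon 10 of Baiap2l2, from 24.6% at P0 to 89.2% at P21 in ISCs and from 40.1% to 70.1% in differentiated cells. The printed Sphk2 bin, in coding exon 3, went the other way, from 67.3% to 1.52% in ISCs and from 64.5% to 12.8% in differentiated cells.

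Most gene-body island bins were nearly unmethylated. In ISCs at P0 63.97% of them were below 10%, 8.002% between 10% and 50%, 13.1% between 50% and 90% and 14.9% above 90%. In all 4 libraries 30646 bins (60.9%) were below 10% and 4654 (9.24%) above 90%, while 661 lay between 35% and 65%. The mean level over bins at P0 was 27.2% (ISCs) and 27.01% (differentiated cells), and at P21 28.03% and 27.8%. Over all bins tested it was between 76.2% and 77.01%, and over gene-body bins outside CGIs between 78.8% and 79.4%. By position, 44127 bins (87.6%) were intronic, 5800 (11.5%) in coding exons and 426 (0.846%) in non-coding exons, and in ISCs at P0 the mean level was 49.5% in coding exons, 24.4% in introns and 9.59% in non-coding exons. The median bin held 10 CpGs and lay 1228 bp from the start of its gene, at 9.06% of the gene's length, and 53.1% of the bins belonged to islands that also reached into a 5' region.

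The kind of island went with the level. In islands that reached a 5' region (26735 bins) the mean was 3.63% in ISCs at P0. Islands away from 5' regions and last exons that held the start of another annotated transcript (5711 bins) averaged 18.9%, with a median of 1.42%. Islands that extended into a last exon (1141 bins) averaged 40.5%, and internal islands with none of these features (16766 bins) averaged 66.6%, with a median of 86.96%. The histograms of level by class of island show the shift from the unmethylated to the methylated end.

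**Figure D1:**
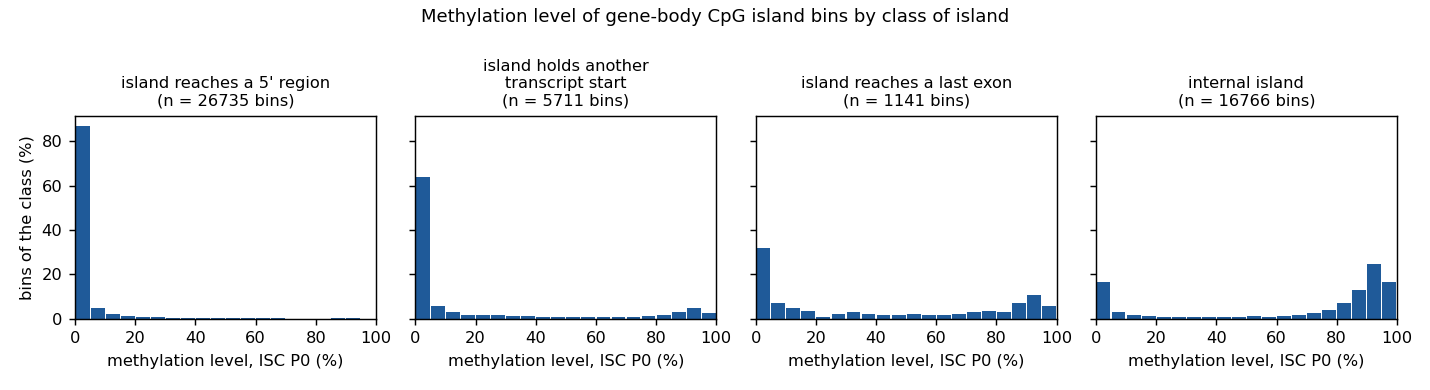
Share of gene-body island bins (y axis, % of the class) at each methylation level in ISCs at P0 (x axis, %, in steps of 5 points) for 4 classes of island. Islands that reach a 5' region pile up next to 0 (mean 3.63%), whereas internal islands peak above 80% and keep a smaller group of unmethylated bins (median 86.96%).

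Calls numbered between 1023427645 and 1188114423 per library. The deepest tested bin of each library, outside CGIs, alone held between 182120634 and 223255239, so these totals do not measure depth elsewhere. The median gene-body island bin held 146 (ISC P0), 354 (differentiated P0), 168 (ISC P21) and 286 (differentiated P21) calls. Intervals on levels below are 95% Wilson intervals and cover counting error only, because PCR copies of a molecule, and neighbouring CpGs on a read, are not independent. The populations were checked by 5' regions of marker genes. All 8 epithelial markers (Epcam, Cdh1, Krt8, Vil1, Cdx1, Cdx2, Cldn7 and Elf3) were at or below 14.6% in every library, and the median of 6 blood cell markers lay between 71.1% and 74.5%, with Coro1a (5.39% to 11.7%), Vav1 (38.7% to 53.6%) and Laptm5 (56.8% to 64.7%) below it. The 5' region of Lgr5 was between 1.70% and 6.51% in the 4 libraries and did not separate the sorted populations. The median of 6 mesenchymal and endothelial markers was between 2.32% and 3.797% and their highest gene between 61.5% and 67.9%, so this list did not separate those cells from epithelium.

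The first comparison asked how islands in gene bodies changed between P0 and P21 in ISCs, as maturation-associated differentially methylated regions (mDMRs). Where these islands changed, they mostly became more methylated. In ISCs 933 bins in 562 genes gained more than 15 points with an adjusted p below 0.05 (two-sided Fisher's exact test on calls, Benjamini-Hochberg adjustment over all 4076373 bins), and 234 bins in 184 genes lost as much. Gains made up 1.85% of gene-body island bins, against 1.07% of all bins tested, and losses 0.465% against 1.48%. The 2 sets differ in what can be called. Bins below 10% in ISCs at P0 cannot lose 15 points. They were 63.97% of gene-body island bins and 4.82% of all bins tested. The median bin held 146 and 55 calls in that library. What this adds to the shares was not tested. Together 2.32% were called, against 2.55% of all bins. The share of gains among called bins was 79.9% (exact binomial interval 77.5 to 82.2, over bins). This interval, like that for differentiated cells below, counts bins as independent, although the 933 gains lay in 612 islands. The mean of bin levels rose by 0.853 points in ISCs, and the median size of a called difference was 24.5 points.

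The pair of libraries of differentiated cells gave the same direction. By the study's methods the mice were pooled by age and both populations were sorted, so the libraries of 1 age may share animals, and what both pairs show is not independent support across animals. In differentiated cells 840 bins in 473 genes gained methylation (1.67%, against 0.992% of all bins tested) and 191 bins in 152 genes lost it (0.379%, against 1.86%). In all 2.05% were called, against 2.85% of all bins, with a share of gains of 81.5% (78.97 to 83.8) and a mean rise of 0.744 points. Of the 933 ISC gains 470 were also called as gains in differentiated cells, which is 50.4% of the ISC gains and 55.95% of the 840 others, and 3 were called as losses. Among the 933 bins 846 (90.7%) were higher at P21 in differentiated cells too, with a median rise of 15.9 points. Of the losses 70 bins were shared, which is 29.9% of those in ISCs and 36.6% of those in differentiated cells, and 8 were called as gains there. Among the 234 ISC losses 179 (76.5%) were lower at P21 in differentiated cells, with a median change of -8.49 points. These overlaps were not counted over all bins tested.

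Fisher's test counts every call as independent, and the number of calls depended on it. With the calls of a bin divided by its CpGs, 8 bins were called in ISCs (4 gains and 4 losses) and 42 in differentiated cells (26 and 16). On this scale an unadjusted p under 0.05 was less frequent in gene-body island bins than over all bins tested. The shares were 0.596% against 1.95% in ISCs and 0.985% against 2.39% in differentiated cells. The bins compared were not matched for level or number of calls, so this does not show that islands changed less often. Over runs of bins, described next, the order was the reverse. When every call was given equal weight in place of every bin, the mean change turned to -0.664 points in ISCs and -0.298 in differentiated cells, while with 1 common weight per bin in both libraries it was 0.795 and 0.706 (the common weight was chosen after seeing the data).

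A stricter test, chosen after seeing the data, therefore took each run of neighbouring CGI bins of 1 island, 1 kind of gene region and 1 gene as a whole, divided the calls of each bin by its CpGs before summing, and adjusted over the 39457 such runs of the genome. A molecule that spans neighbouring bins still counts in each of them, and so do any PCR copies left. The p-values of runs do not cover this dependence. Of 15073 runs in gene bodies 27 gained methylation in ISCs (0.179%, against 0.142% of all runs) and 6 lost it (0.0398%, against 0.0253%). In differentiated cells 71 gained (0.471%, against 0.312%) and 11 lost (0.0730%, against 0.0355%). An unadjusted p under 0.05 (Fisher's exact test) was more frequent in gene-body runs than over all runs. The shares were 1.93% against 1.51% in ISCs and 2.70% against 2.32% in differentiated cells. Depth differed between the populations. The median gene-body island bin held 354 (P0) and 286 (P21) calls in differentiated cells, against 146 and 168 in ISCs. What this adds to runs called in differentiated cells alone, here and below, was not tested. All 27 ISC gains were higher and all 6 ISC losses lower at P21 in differentiated cells, and 21 of the 27 and 5 of the 6 were called there as well, which is 29.6% of the 71 and 45.5% of the 11. Internal islands held 16 of the 27 ISC gains and all 6 losses in 4232 runs (0.378% and 0.142%), and islands with another transcript start held 8 gains in 1066 runs (0.750%). Islands that extended into a last exon held 2 gains in 575 runs (0.348%). Among 9200 runs of islands that reached a 5' region 1 gained methylation in ISCs and 10 in differentiated cells, and none was called as a loss.

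**Figure D2:**
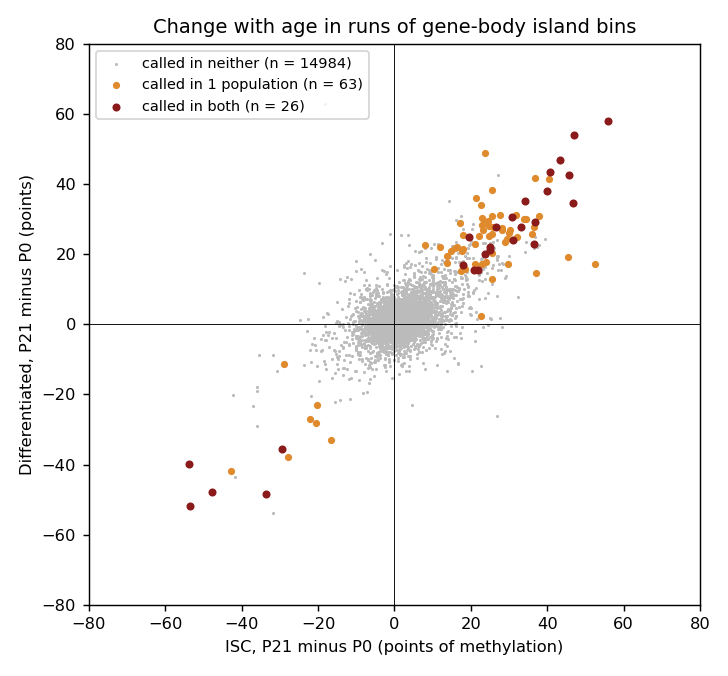
Change from P0 to P21 in ISCs (x axis, points of methylation) against the change in differentiated cells (y axis, points) for each run of gene-body island bins, coloured by the run test in neither, 1 or both populations. The 26 runs called in both populations lie in the upper right (21 gains) and the lower left (5 losses), and none lies in the other corners.

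Among the segments (runs of gene-body island bins, 3 or more) with the most ISC gain bins, the largest belonged to Amn, which encodes amnionless, part of the receptor that takes up vitamin B12 bound to intrinsic factor. Its 11 bins (chr12:112512001-112514200, between exons 3 and 11 of 12) all gained in ISCs, and the level was 15.5% (14.1 to 17.1) at P0 and 51.98% (50.1 to 53.8) at P21 in ISCs, and 23.2% (22.2 to 24.2) and 46.1% (44.8 to 47.4) in differentiated cells. Baiap2l2, for an epithelial protein that shapes flat membranes, gained in all 8 bins between exons 7 and 10 in both populations, and its levels were 25.7% (23.05 to 28.5) at P0 and 66.5% (63.8 to 69.1) at P21 in ISCs, and 22.7% (21.2 to 24.2) and 66.04% (63.7 to 68.3) in differentiated cells. At both genes every interval at P21 lay above every interval at P0. Jak3, a kinase of cytokine receptors, held a segment of 10 bins of which 7 gained in ISCs and 8 in differentiated cells, with levels that rose from 46.3% at P0 to 77.2% at P21 in ISCs and from 45.99% to 76.6% in differentiated cells. Jakmip1, a protein that binds Janus kinases and microtubules, went from 30.8% at P0 to 77.7% at P21 in ISCs and from 23.5% to 77.4% in differentiated cells over 5 bins. In the run test with Fisher's exact test the adjusted p for ISCs and differentiated cells was 5.28e-07 and 2.19e-06 for Amn, 9.46e-06 and 5.07e-12 for Baiap2l2, 3.89e-04 and 2.96e-10 for Jak3, and 1.11e-04 and 1.11e-18 for Jakmip1.

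Homeobox and paired-box genes, which set regional identity during development, gave 3 of the 10 strongest segments. Hoxd3 (chr2:74574001-74575000, intron 1, with the start of another Hoxd3 transcript) was at 23.8% (21.1 to 26.8) at P0 and 69.3% (66.3 to 72.1) at P21 in ISCs, and 31.5% (29.4 to 33.7) and 50.7% (48.4 to 53.05) in differentiated cells. The rise was larger in ISCs, and at P21 the ISC level stood 18.6 points above the differentiated one. Hoxd4, its neighbour, went from 17.7% at P0 to 64.6% at P21 in ISCs and from 25.4% to 60.1% in differentiated cells, and another Hoxd3 segment in intron 1 from 10.6% at P0 to 24.2% at P21 in ISCs and from 12.4% to 22.1% in differentiated cells. Pax8 (intron 2, chr2:24329201-24330400), a factor of thyroid and kidney development, rose from 13.4% at P0 to 50.4% at P21 in ISCs and from 16.2% to 30.97% in differentiated cells, although the 5' region of its longest coding transcript was at 84.5% to 89.3% in ISCs. The run test gave an adjusted p (Fisher's exact test) in ISCs and differentiated cells of 1.17e-06 and 0.0927 for Hoxd3, 8.96e-07 and 2.85e-04 for Hoxd4, and 0.00630 and 0.373 for Pax8, so that Hoxd3 and Pax8 were called in ISCs alone. The difference in change between populations was called in 4 bins of Hoxd3 and 2 of Pax8, but in 0 of the 15073 runs when calls were divided by CpGs.

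The remaining 3 segments of the 10 were called bin by bin, and not as runs in ISCs. Sh2b3, an adaptor that dampens cytokine signals, went from 37.9% at P0 to 63.6% at P21 in ISCs and from 39.2% to 66.9% in differentiated cells over exons 2 and 3 (run test, Fisher's exact test, adjusted p = 0.314 in ISCs and 4.61e-04 in differentiated cells). Nbea, for the trafficking protein neurobeachin, was at 23.6% and 21.7% at P0 and 52.5% and 34.8% at P21 in ISCs and differentiated cells in intron 41, and Nr4a2, an orphan nuclear receptor, at 24.8% and 29.1% at P0 and 47.3% and 43.8% at P21 in ISCs and differentiated cells around exon 3. Their adjusted p-values in the run test of Fisher's exact test were 0.0902 and 0.0821 in ISCs and 0.146 and 0.227 in differentiated cells.

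**Figure D3:**
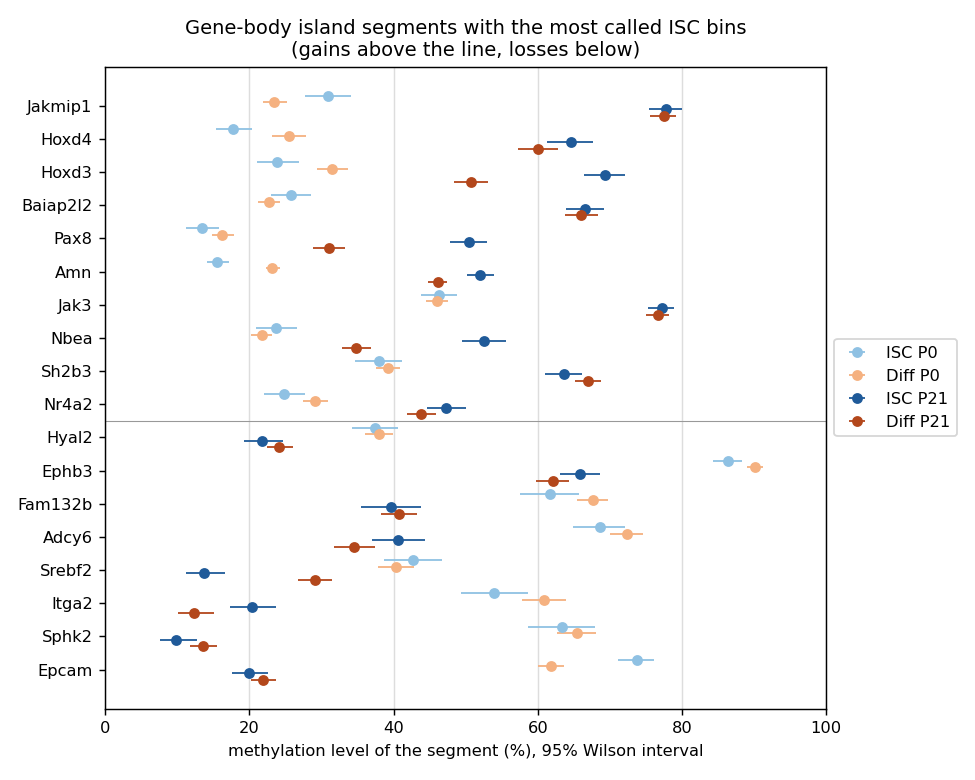
Methylation level (x axis, %, with 95% Wilson intervals) of the 10 gene-body island segments with the most ISC gain bins and the 8 with the most ISC loss bins (y axis, by gene) in the 4 libraries. Both dark P21 points lie right of both light P0 points at all 10 gains and left of them at all 8 losses. At P21 the intervals of ISCs and differentiated cells do not overlap at Hoxd3, Pax8, Nbea, Amn and Itga2 (ISCs higher) and at Srebf2 (ISCs lower). The intervals cover counting error only, and none of these segments was called between the populations at P21 as a run. The difference was under 15 points at Amn and Itga2.

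Fewer islands lost methylation, and 8 segments are named. Epcam encodes the adhesion molecule by which the differentiated cells were sorted. Its segment (chr17:88039401-88040200, intron 3 and exon 4 of 10) was at 73.7% (71.1 to 76.1) at P0 and 19.9% (17.6 to 22.5) at P21 in ISCs, and 61.8% (59.9 to 63.6) and 21.9% (20.2 to 23.7) in differentiated cells. Its 5' region was at 14.6% and 12.2% at P0 and 11.9% and 8.56% at P21. Itga2, the alpha chain of a collagen-binding integrin, fell from 53.97% at P0 to 20.3% at P21 in ISCs and from 60.9% to 12.4% in differentiated cells in intron 2. Sphk2, a kinase that makes sphingosine 1-phosphate, stood at 63.3% (58.6 to 67.9) at P0 and 9.85% (7.57 to 12.7) at P21 in ISCs, and 65.4% (62.7 to 68.1) and 13.6% (11.8 to 15.6) in differentiated cells, the largest fall of the 8 in differentiated cells. For these 3 the run test gave an adjusted p (Fisher's exact test) of 6.79e-07, 1.95e-04 and 3.67e-08 in ISCs and 4.81e-09, 5.32e-08 and 7.94e-18 in differentiated cells.

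Ephb3, an ephrin receptor that takes part in placing cells along the crypt, went from 86.4% at P0 to 65.9% at P21 in ISCs and from 90.1% to 62.1% in differentiated cells, and Adcy6, an adenylyl cyclase, from 68.6% at P0 to 40.6% at P21 in ISCs and from 72.4% to 34.5% in differentiated cells. Both were called as runs in differentiated cells (adjusted p = 2.10e-07 and 1.21e-06, Fisher's exact test) and not in ISCs (0.464 and 0.201). The summed calls per CpG of the Ephb3 run were 118 at P0 and 118 at P21 in ISCs, against 257 and 168 in differentiated cells. At Adcy6 they were 65 and 72 against 151 and 110. Srebf2, a transcription factor of cholesterol synthesis, went from 42.7% at P0 to 13.7% at P21 in ISCs and from 40.4% to 29.1% in differentiated cells, and was called as a run in ISCs (adjusted p = 0.0443, Fisher's exact test) and not in differentiated cells (1). Fam132b, which encodes the hormone erythroferrone, was at 61.7% and 67.6% at P0 and 39.6% and 40.7% at P21 in ISCs and differentiated cells (Fisher's exact test, adjusted p = 1 in ISCs and 0.0150 in differentiated cells). Hyal2, a hyaluronidase, was at 37.4% and 37.96% at P0 and 21.8% and 24.1% at P21 in ISCs and differentiated cells, with no call as a run in either.

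Over all genes, of 9643 segments of 3 or more bins, 75 had 3 or more ISC gain bins and 10 had 3 or more ISC loss bins. In differentiated cells 73 of the 75 were higher and 10 of the 10 lower at P21, with a median change of 21.9 points in the first and -27.5 points in the second. In the gaining segments the mean level of differentiated cells, whose libraries were not used to choose them, was 23.8% at P0 and 44.6% at P21 in the central bin, and 59.4% and 62.3% at 3000 bp before it, where 48 of the 75 had a tested bin. The rise in differentiated cells was 20.9 points in the central bin, 2.88 points at 3000 bp before it and 7.73 points at 3000 bp after it, so the dip became shallower and was still there at P21. In the 10 losing segments the central bin went from 67.7% to 34.2% in differentiated cells.

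**Figure D4:**
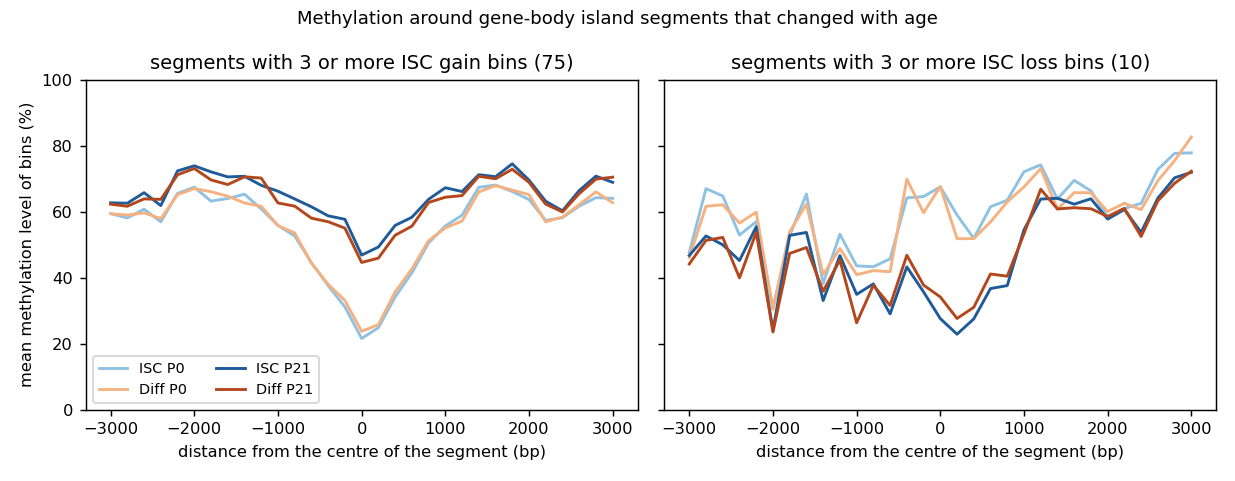
Mean methylation level of 200-bp bins (y axis, %) by distance from the centre of the segment (x axis, bp, in genome direction) in 75 segments with 3 or more ISC gain bins (left) and 10 with 3 or more ISC loss bins (right), 1 line per library. The gaining segments show a dip at P0 (21.6% for ISCs, 23.8% for differentiated cells) that is less deep at P21 (46.9% and 44.6%); ISC calls chose the segments, so the ISC gap is a description.

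The share of bins that gained varied with the place of the island in the gene. By class, ISC gains took 0.879% of the bins in islands that reach a 5' region, 2.66% in internal islands, 3.34% in islands with another transcript start and 5.35% in islands that extend into a last exon. Losses took 0.187%, 0.907%, 0.350% and 1.05% in the same order, so gains outnumbered losses in each class. The run test ranked the classes otherwise. In the same order it called ISC gains in 0.0109%, 0.378%, 0.750% and 0.348% of runs. The last 2 shares rest on 8 of 1066 and 2 of 575 runs. Called ISC runs had a median of 4 bins, against 3 for all gene-body runs, and run length was not matched between classes. In differentiated cells the shares of the 4 classes were 0.109%, 0.898%, 1.69% and 0.870%. Coding exon bins gained in 3.78% and lost in 1.09%, and intron bins gained in 1.59% and lost in 0.385%, so both directions were more frequent in coding exons. Along the gene the share with a gain was 0.998%, 2.17%, 2.72%, 4.48% and 3.14% over 5 equal parts of the gene from start to end. For comparison, CGI bins in 5' regions gained in 0.640%, those in last exons in 6.16%, those outside protein-coding genes in 1.12%, and gene-body bins outside CGIs in 1.22%, with losses of 0.224%, 1.09%, 0.414% and 1.66%. The bars of calls by class show that loss exceeded gain only among bins outside CGIs and among all bins. No test between these sets was made.

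**Figure D5:**
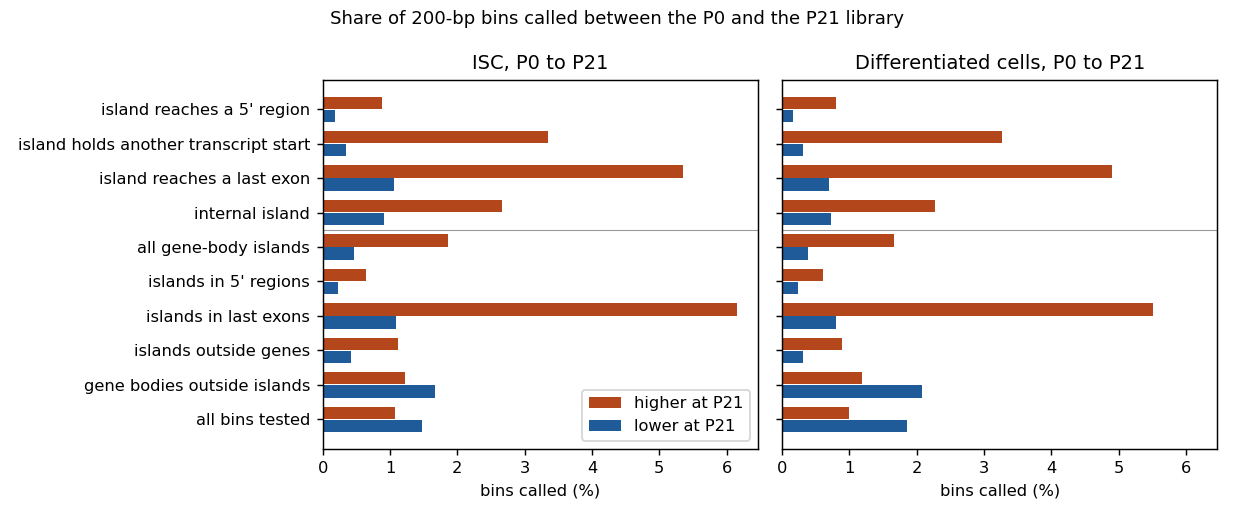
Share of 200-bp bins called higher (red) or lower (blue) at P21 than at P0 (x axis, %) in ISCs (left) and differentiated cells (right), for 4 classes of gene-body island above the line and for whole sets of bins below it. By the bin test shown, islands extending into a last exon have the longest red bar of the 4 classes (5.35% in ISCs). In gene bodies outside islands the blue bar is the longer (1.66% lower and 1.22% higher). By the run test, islands with another transcript start had the largest share of ISC gains (0.750%, 8 of 1066 runs, against 0.348%, 2 of 575, for a last exon).

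Calls in both directions were most frequent at intermediate levels. Sorted by the level of the differentiated P0 library, which takes no part in the ISC comparison, the share of bins with an ISC gain was 0.334% below 10%, 12.01% from 10% to 30%, 18.4% from 30% to 50%, 12.3% from 50% to 70%, 1.63% from 70% to 90% and 0.237% from 90% up, where a bin cannot gain 15 points unless the libraries differ at P0. The share with an ISC loss was 0.0433%, 1.85%, 4.15%, 4.08%, 0.921% and 0.168% in the same order. Dense bins gained less often, in 0.764% of those with 21 or more CpGs and in 2.18% of those with 2 to 8, and the dense bins were also the least methylated, with a mean of 2.65% in ISCs at P0 against 28.7%.

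Lists of genes by function were counted next. Of 191 developmental transcription factor genes 153 had gene-body island bins. Their 1134 bins had 53 gains (4.67%) and 7 losses (0.617%) in ISCs, in 16 and 4 genes, beside 1.85% and 0.465% of all gene-body island bins. In differentiated cells 48 of the 1134 gained and 3 lost, beside 1.67% and 0.379% of all gene-body island bins. The mean level of the 1134 bins was 9.002% in ISCs at P0. Irx4, an Iroquois homeobox gene, led with 11 of 19 bins in both populations, and 3 of its segments went from 15.2%, 29.6% and 33.1% at P0 to 42.03%, 66.3% and 69.2% at P21 in ISCs. As runs 1 of the 3 was called in ISCs (Fisher's exact test, adjusted p = 0.194, 0.0114 and 0.0821) and 2 in differentiated cells (0.0748, 0.00760 and 0.00871). Hoxd3 (7 of 18), Pax8 (6 of 6), Hoxd4 (5 of 5), Hoxa3 (5 of 18) and Hoxb3 (5 of 23) followed, whereas Hoxb5, Hoxb6 and Hoxd10 had 2 losses each in ISCs and none in differentiated cells. Glycosylation enzymes had 13 gains and 1 loss among 532 bins (2.44% and 0.188%, beside 1.85% and 0.465% of all gene-body island bins), in 10 genes and 1 gene. B4galnt1, which makes the gangliosides GM2 and GD2, had 4 of the gains, and its segment in the exon 8 to exon 10 region was at 17.2% (15.4 to 19.2) at P0 and 40.9% (38.7 to 43.2) at P21 in ISCs, and 17.003% (15.8 to 18.3) and 37.03% (35.2 to 38.9) in differentiated cells (run test, Fisher's exact test, adjusted p = 0.00107 and 1.88e-04). B3gnt3, an enzyme that extends sugar chains of mucins, went from 70.8% at P0 to 82.6% at P21 in ISCs and from 58.8% to 80.9% in differentiated cells, and passed the run test in differentiated cells (adjusted p = 0.00282, Fisher's exact test) but not in ISCs (1). B4galnt4, a related transferase, had 1 gain in ISCs and none in differentiated cells, at 8.42% and 6.01% at P0 and 16.3% and 6.59% at P21 in ISCs and differentiated cells, and was not called as a run (adjusted p = 1 and 1, Fisher's exact test).

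Adhesion genes (cadherins, integrins, claudins and their partners) had 10 gains and 5 losses among 381 bins in ISCs (2.62% and 1.31%, beside 1.85% and 0.465% of all gene-body island bins). Pkp3, a desmosomal plakophilin, was at 38.6% and 39.2% at P0 and 64.7% and 61.1% at P21 in ISCs and differentiated cells, with 3 of its 7 bins called as gains in each population and no call as a run. The segments of Tjp3, a scaffold of tight junctions, were at 76.04% and 86.9% at P0 and 87.1% and 86.5% at P21 in ISCs and differentiated cells in 1 and at 68.6%, 66.5%, 75.4% and 79.3% (ISC P0, differentiated P0, ISC P21 and differentiated P21) in the other. Each had 1 gain in ISCs and no call as a run. Itga2, described above, had 4 of the 5 losses. Solute carriers had 17 gains and 2 losses among 803 bins (2.12% and 0.249%), a share of gains near the 1.85% of all gene-body island bins and a share of losses below their 0.465%. The 4 gains of Slc16a11, of the monocarboxylate carrier family, came with 28.9% and 23.9% at P0 and 47.8% and 36.6% at P21 in ISCs and differentiated cells, and the segment was not called as a run (Fisher's exact test, adjusted p = 0.0873 and 0.132). Slc30a10, a manganese exporter, was at 25.2% and 20.5% at P0 and 46.4% and 43.5% at P21 in ISCs and differentiated cells in a single bin of intron 1, called as a run in differentiated cells alone (Fisher's exact test, adjusted p = 0.794 and 0.0349). Its 4 bins in intron 2 were at 71.7%, 71.3%, 68.7% and 74.2%. Those of Slc12a8 were at 76.1%, 76.8%, 87.8% and 80.4%. Neither was called as a run. Among Wnt pathway genes, whose signal maintains the stem cells, 371 bins gave 7 gains and 1 loss (1.89% and 0.270%), a share of gains near that of all gene-body island bins (1.85%). Tcf7l1, a factor at the end of the pathway, was at 1.99% and 1.16% at P0 and 6.97% and 3.29% at P21 in ISCs and differentiated cells. In the same libraries Wnt11 was at 1.88%, 3.52%, 7.27% and 5.79%. Notum, a secreted inhibitor, was at 7.87%, 10.5%, 11.4% and 11.2%. None of these 3 segments was called as a run (Fisher's exact test, adjusted p in ISCs = 1, 0.621 and 1). Notch pathway genes had 1 gain, at Dll3, and no loss among 181 bins in ISCs (0.552% and 0%, beside 1.85% and 0.465% of all gene-body island bins). In differentiated cells 2 of the 181 gained and 1 lost, beside 1.67% and 0.379% of all gene-body island bins. The segment of Dll3 was at 19.2%, 29.3%, 29.7% and 31.6%. C2H2 zinc finger genes had 1 gain (Zfp664) and 2 losses (Zfp560 and Zfp653) among 781 bins, 0.128% and 0.256% beside 1.85% and 0.465% of all gene-body island bins. Zfp664 was at 3.05%, 4.28%, 9.48% and 3.81%. Zfp653 was at 15.7%, 21.5%, 5.64% and 8.18%. Neither was called as a run. The single bin of Zfp560 was at 24.6% and 18.6% at P0 and 0% and 0% at P21 in ISCs and differentiated cells, where 65 and 31 calls allow up to 5.58% and 11.03% (Wilson). Collagens and laminins had 1 gain (Col19a1) and 2 losses (Col15a1 and Col6a6) among 150 bins, 0.667% and 1.33% beside the same 1.85% and 0.465%, and none of these 3 segments was called as a run. In ISCs the levels went from 77.6% to 85.7% at Col19a1, from 91.7% to 87.5% at Col15a1 and from 51.8% to 52.9% at Col6a6. Genes of the DNA methylation enzymes had 0 calls among 53 bins by Fisher's test in ISCs and in differentiated cells, too few bins to be read against the 2.32% called among all gene-body island bins in ISCs.

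Below, 4 levels in a row are those of ISC P0, differentiated P0, ISC P21 and differentiated P21. Imprinted genes, where methylation on the chromosome of 1 parent keeps many islands at an intermediate level, were described segment by segment. Their 124 bins in 18 genes averaged 47.3% in ISCs at P0. They had 12 gains and 11 losses in ISCs (9.68% and 8.87%, beside 1.85% and 0.465% of all gene-body island bins). Kcnq1 had 5 of the 12 gains. In differentiated cells 5 bins gained and 6 lost, beside 1.67% and 0.379% of all gene-body island bins. Bins of intermediate level were called more often in general. At 30% to 50% in the differentiated P0 library, 18.4% of gene-body island bins gained and 4.15% lost in ISCs. At 50% to 70% the shares were 12.3% and 4.08%. The median change over the 124 imprinted bins was 0.294 points in ISCs and 0.0819 in differentiated cells. The antisense transcript Airn starts in intron 2 of Igf2r, the receptor that clears insulin-like growth factor 2, and the island there was at 59.7%, 52.8%, 54.7% and 51.4%. The other islands of Igf2r were at 91.5% in intron 44 in ISCs at P0, and next to the 5' region at 51.9%, 27.2%, 39.1% and 39.5%, where the ISC P0 library stood above the other 3. Intermediate levels were also found in intron 1 of Gnas (41.9%, 39.2%, 40.9% and 41.3% over 16 bins), in intron 15 of Inpp5f (53.4%, 57.7%, 59.6% and 50.7%), in intron 16 of Trappc9 (51.1%, 52.03%, 50.5% and 46.8%), and at the 5' side of Peg10 (44.5%, 52.5%, 46.9% and 54.01%), Peg3 (45.1%, 48.8%, 53.4% and 51.9%) and Mest (43.5%, 53.98%, 58.6% and 56.6%). The segment of Gnas next to the 5' region was at 64.7%, 64.2%, 54.97% and 60.8%, and that of Nnat towards its last exon at 44.8%, 49.9%, 24.4% and 42.7%. Methylated throughout were exon 2 of Peg10 (95.3%, 95.2%, 94.2% and 94.2%) and exon 2 of Trappc9 (92.4%, 93.3%, 96.4% and 93.8%). Snrpn, Plagl1, Commd1, Cdh15 and Impact lay between 40.98% and 65.6% in all 4 libraries.

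Intron 11 of Kcnq1, the potassium channel gene whose intron is known to hold an imprinting centre, departed from the middle. Its segment (chr7:150481001-150482600, 8 bins) was at 55.04% (53.4 to 56.7) at P0 and 73.1% (71.6 to 74.5) at P21 in ISCs, and 48.9% (47.7 to 50.1) and 65.8% (64.6 to 66.9) in differentiated cells, with 5 bins gaining in ISCs and 3 in differentiated cells (run test, Fisher's exact test, adjusted p = 0.0229 and 8.21e-06). The 2 bins next to the 5' region of Kcnq1 were at 10.99% and 10.6% at P0 and 1.62% and 0.699% at P21 in ISCs and differentiated cells, with 1 of the bins called as a loss in each population, in differentiated cells also with calls divided by CpGs. As a run they were called in neither, the change being under 15 points (Fisher's exact test, adjusted p = 1 and 0.00992). Their ISC change of -9.37 points was -24.7 with bins shifted by 100 bp, -14.8 on the plus strand and -0.864 on the minus strand. Grb10, an adaptor of growth factor receptors, had 72.3%, 65.7%, 62.6% and 59.96% in intron 1 around an inner transcript start (adjusted p = 1 and 1 in the run test of Fisher's exact test) and 1.08% in ISCs at P0 next to its 5' region. Islands of H13 and Blcap, and those next to the 5' regions of Copg2, Inpp5f and Trappc9, were at or below 2.30% in every library.

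The second question was how ISCs and their differentiated progeny differed at 1 age (differentiation-associated regions, dDMRs). The share of such bins in gene-body islands was near that of all bins tested at P0 and above it at P21. At P0 104 bins were higher and 126 lower in differentiated cells (0.207% and 0.250%, against 0.288% and 0.22% of all bins tested), in all 0.457% against 0.508%. At P21 53 were higher and 100 lower (0.105% and 0.199%, against 0.0711% and 0.111%), in all 0.304% against 0.182%. The P0 and P21 calls come from separate libraries, and 4 bins were higher at both ages (3.85% of 104 and 7.55% of 53) and 4 lower (3.17% of 126 and 4% of 100), while 5 and 4 of the P0 bins were called the other way at P21. This overlap was not counted over all bins tested. With calls divided by the CpGs of a bin, Fisher's test called 0 bins at either age, with 46 bins at P0 and 25 at P21 at an unadjusted p under 0.05 (0.0914% against 0.955% of all bins tested, and 0.0496% against 0.613%). The run test called 0 gene-body runs at either age (unadjusted p under 0.05 in 155 and 100 of 15073, or 1.03% against 1.52% of all runs at P0 and 0.663% against 0.885% at P21), and over all runs of the genome it called 0% as higher and 0.00253% as lower at P0, and 0% and 0% at P21.

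Segments with the most dDMR bins at P0 were in Nnat and Gnas, with 3 each. Of the segments with 2, among them those of Kcnq1, Grb10, Igf2r, Ccdc21 and Cdh15, Prdm16 and Cux2 had the larger mean differences. Nnat, an imprinted gene of a small membrane protein, was lower in the ISC library at P0 and higher at P21 (49.8%, 66.8%, 63.6% and 53.6%), so the order of the populations turned with age. Prdm16, a zinc finger regulator, turned too (58.5%, 41.1%, 49.7% and 56.8%), and Cux2, a homeobox gene, had 36.2%, 48.7%, 48.1% and 47.4%. At P21 Pax8 and Hoxd3 were 19.4 and 18.6 points lower in differentiated cells than in ISCs, and Foxp1, a forkhead factor, 23.4 points lower after being 11.1 points higher at P0. None of these segments was called as a run (adjusted p = 1 in each, Fisher's exact test). Slc38a4 had 3 dDMR bins at P21 too, all higher in differentiated cells. Impact, an imprinted gene of the translation stress response, had 4 and was at 45.9%, 43.6%, 48.7% and 41.1%.

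The age effect itself differed between ISCs and differentiated cells in 207 bins (0.411%, against 0.15% of all bins tested), by a Wald test of the interaction with Benjamini-Hochberg adjustment. The signed change was higher (more positive or less negative) in ISCs in 119 of them, whatever its size. Of the 207, 78 were among the ISC gains. With calls divided by CpGs the same test called 0 bins (21 at an unadjusted p under 0.05) and the run test 0 of 15073 gene-body runs (32), a change of analysis chosen after seeing the data.

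Many islands stayed at 1 level in all 4 libraries. Among the 9643 segments of 3 or more bins, 5115 were below 5% in every library, 143 between 35% and 65%, and 1339 above 90%. Of the low ones 4169 belonged to islands that reached a 5' region, 505 to islands with another transcript start and 412 to internal islands. The 5' region of the host gene's longest coding transcript had tested bins for 499 of the 505 and 408 of the 412. It was above 50% in all 4 libraries for 129 and 50 of these, while the inner segment was below 5%. In the class of the 129 the island itself held another annotated start. Cyp26b1, which degrades retinoic acid, had 20 unmethylated bins across introns 2 and 3 (1.68%, 1.89%, 1.48% and 1.79%) while its own 5' region was at 72.7% to 83.3%. Unc45b, a chaperone of muscle myosin, had 19 in intron 13 around the starts of other transcripts (1.35%, 1.18%, 1.56% and 1.88%), with a 5' region at 71.97% to 80.8%. Bahcc1, a chromatin-binding protein, held the most bins among low segments of islands that reached no 5' region (25, 0.406%, 0.667%, 0.949% and 0.620%).

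Of the 1339 segments above 90%, 1257 were internal islands, which is 33.3% of all internal segments. The longest, among islands that reached no 5' region, was in intron 1 of Filip1, for a filamin-binding protein (24 bins, 91.9%, 91.9%, 90.6% and 91.6%). Next were those in exons 31 and 32 of Plec, for the cytoskeletal linker plectin (19 bins, 91.9%, 90.99%, 94.2% and 92.5%), and in intron 3 of Gng12, a G protein subunit (16 bins, 92.2%, 92.9%, 90.2% and 92.01%). At intermediate level the longest that were not in the imprinted list were Crlf2, a cytokine receptor (43.6%, 41.6%, 35.99% and 45.1%, 15 bins), Ccdc21 (51.7%, 48.6%, 51.96% and 58.05%, 8 bins) and the amino acid carrier Slc38a4 (52.7%, 51.04%, 53.05% and 53.6%, 8 bins). The list was made by hand, and absence from it does not show that a gene is not imprinted.

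The 5' regions of the same genes were compared as well. In genes with an ISC gain in a gene-body island the median 5' level was 8.64% in ISCs at P0 and 9.52% at P21, and 57 of 560 (10.2%) had a gain in the 5' region too. Over all genes with a gene-body island bin the medians were 5.73% and 5.58%, and 481 (4.37%) had such a gain. In genes with an ISC loss the medians were 7.62% and 6.34%, and 19 of 183 (10.4%) had a loss in the 5' region, beside 413 (3.76%) of all genes with a gene-body island bin. In the opposite direction, 30 of the 560 (5.36%) had a 5' loss and 10 of the 183 (5.46%) a 5' gain. Of the 933 gain bins 235 lay in islands that reached a 5' region, where 1 island can be counted on both sides.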

How the data were processed

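Methylation was read by whole-genome bisulfite sequencing of 4 mouse colon libraries, 1 per group, each from sorted cells of pooled animals. The authors trimmed the reads and mapped them to mm9 with Bismark, whose version, like the removal of duplicates, is not given in the sources used here. The deposited files give, per cytosine of a CpG, the counts of methylated and of all calls, and the authors' level as a fraction of them. Levels were recomputed here from the counts. Both strands were summed and calls pooled in 200-bp bins (2 or more CpGs, 10 or more calls in each library). Genes came from GENCODE M1 (longest coding transcript). Libraries were compared by two-sided Fisher's exact tests with Benjamini-Hochberg adjustment over 4076373 bins, calling adjusted p below 0.05 and over 15 points, and the change with age between populations by a Wald test on log odds with 0.5 added to each count. The bin test was checked on simulated data with independent calls, which does not cover dependence between calls of 1 read. With 1 library per group there was no replicate, so p-values hold for these libraries.

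The regions and gene lists were chosen with earlier results of these data known. Named are the segments (gaps of at most 200 bp) with 3 or more bins and the most ISC mDMR bins (10 gains, 8 losses), with the most dDMR bins (4 per age, ties by mean difference), the longest at intermediate (5), low (3) or high (3) level, and, of any length, all of imprinted genes and up to 3 genes with calls per other list. The low and high ones were taken among islands that reached no 5' region. Genes named by their counts alone were chosen after their values were seen. Total calls, with those of the deepest bin, were 1023427645 to 1188114423 per library. Tools were Python 3.11.15, NumPy 2.4.6, SciPy 1.17.1, pandas 2.3.3, Numba 0.67.0 and matplotlib 3.10.9. Other call minimums, call rules, strands, depths, bin frames and CGI definitions were tried.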

Additional observations from a re-analysis of the deposited data

Results flagged for a closer look

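By the Wald test of the interaction on calls, with Benjamini-Hochberg adjustment, the change from P0 to P21 differed between ISCs and differentiated cells in 207 gene-body island bins. The 2 differences had opposite signs in 148 of these, and in 11 both were called. Among the segments described above or in the lists, 4 such bins each lay in Hoxd3 and in the segment of 16 bins of Gnas. Prdm16, Foxp1, Kcnq1 intron 11, Grb10 intron 1 and Amn held 3 each. Pax8, Nnat, Ccdc21, Cdh15 and Srebf2 held 2 each. Nbea, Cux2, Inpp5f intron 15, Col6a6, Commd1, Itga2, Baiap2l2, Slc38a4, the Igf2r segment next to the 5' region and Epcam held 1 each. With calls divided by the CpGs of a bin the test called 0 bins, with 21 at an unadjusted p under 0.05. Dependence between calls of 1 read was not tested further.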

How the results depend on the processing

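A minimum of 20 calls gave mean changes of 0.858 points in ISCs and 0.756 in differentiated cells, thinning to the lowest library 0.847 and 0.741 (81 and 52 dDMR bins at P0 and P21), and bins shifted by 100 bp 0.859 and 0.727. Over 15 points with no test, 2191 ISC bins (72.1% gains) passed, gains were 75.2% in differentiated cells, and dDMRs 960 and 788. Over 30 points with the test left 361 ISC bins, 236 in differentiated cells (78.0% gains), and 43 and 21 dDMRs. Requiring each strand left 658 (83.4%), 546 (84.8%), 69 and 48. Calls divided by CpGs left 8 (50% gains), 42 (61.9%), 0 and 0, and an interaction count of 0. At 35 CpGs per 500 bp there were 386 (86.3%, mean 0.671), 336 (88.1%, 0.578), 89 and 61, and with CGIs called from sequence 627 (83.1%, 0.701), 523 (85.9%, 0.622), 143 and 99. Weighting every call equally reversed the means to -0.664 and -0.298. Alternatives chosen after seeing the data were the same weighting up to 1000 calls (-0.551 and -0.478), a common weight in both libraries (0.795 and 0.706), and runs (33 in ISCs, 82 in differentiated cells with 86.6% gains, interaction 0). The causes were not tested.

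The sign of the segments' ISC change turned in 2 of 82 with shifted bins, in 6 of 82 on the minus strand and in 13 of 81 on the plus strand. With shifted bins these were Slc38a4 (-0.801) and Copg2 (0.209). On the minus strand they were Gnas over 16 bins (0.803), Dll3 (-0.313), Trappc9 intron 16 (3.20), Peg3 (-5.78), Plagl1 (15.9) and Copg2 (0.558). On the plus strand they were Slc30a10 intron 2 (1.55), Gnas next to the 5' region (1.47), Ccdc21 (-9.18), Col6a6 (-24.7), Slc38a4 (-7.03), Impact (-0.133), Prdm16 (5.86), Peg10 (-3.67), H13 (2.5), Snrpn (-0.767), Grb10 next to the 5' region (-0.0536), Unc45b (-0.116) and Igf2r intron 44 (-0.326). No paired analysis was possible because each group had 1 library and the labels carry no replicate numbers. Depth limits single bins, with a median of 146 calls in the ISC P0 library.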
